A study of Mus musculus with 2 samples.

Results

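The interleukin-1 family genes described here were 7 of the 32285 genes in the files: the agonist ligands Il1a and Il1b, the receptor antagonist Il1rn, the signalling receptor Il1r1, the decoy receptor Il1r2, the shared co-receptor Il1rap and the related cytokine Il18. They were found by symbol in both count matrices, and all 7 were present. Cells that carry the ligands and cells that carry the receptors were told apart by marker genes within each library, with the 7 genes themselves left out of the clustering. Brain cells came from C57BL mice aged 8 to 13 weeks, 24 h into a model of neuromyelitis optica (NMO), an antibody-mediated disease in which astrocytes are the target. They were sequenced as a CD45-positive subset and a CD45-negative subset, CD45 being the surface protein that marks leukocytes, with 1 library each. Both subsets share the strain, the age range, the model and the time, and no untreated library was analysed here, so no value below measures a response to the model. The sources used here state neither the number of mice behind a library nor the method of separation.

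Interleukin-1 alpha and interleukin-1 beta bind the same receptor, IL-1R1, which signals only after it recruits the accessory protein IL-1RAP. The antagonist IL-1RN occupies that receptor without signalling, and the decoy IL-1R2 captures ligand but lacks the signalling domain. Interleukin-1 beta and interleukin-18 are made as precursors that caspase-1, activated in inflammasomes, cleaves, and in the brain interleukin-1 is known for acting on blood vessels and glia.

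The 8433 CD45-positive and 12860 CD45-negative cells that passed the filters had medians of 6100 and 5413 UMIs (molecule tags counted once each, so that copies made by PCR add nothing). Levels are given as CPM (the counts-per-million scale of UMIs), taken within the same cells. Ranges in brackets and after folds are exact 95% intervals that cover counting error only, neither animals nor preparations, and assume that UMIs do not clump in single cells. With 1 library per subset there is no replicate check, so no test was made and no p-value is given. Ptprc, which encodes CD45, was at 612 CPM in CD45-positive and 7.87 CPM in CD45-negative cells, 77.7-fold higher (71.9 to 84.1), so this gene followed the labels of the subsets. The libraries shared 27 barcodes, 25 of them among the kept cells, and without those cells the log2 ratio of Il1b between the libraries was 3.39. In the CD45-positive library 1297 cells in clusters without a name held 41.0% of the Il1b, 50.4% of the Il1rn, 43.1% of the Il1r2 and 25.7% of the Il1a UMIs. They included 263 cells with neutrophil and microglia markers together, at a median of 24314 UMIs, and 236 cells whose monocyte and border macrophage markers scored alike. Class values below leave all of them out.

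Between the whole libraries the ligands, the antagonist and the decoy receptor lay on the CD45-positive side, and the signalling receptor, the co-receptor and Il18 on the CD45-negative side. Il1a had 61.1 CPM in the CD45-positive library and 1.46 CPM in the CD45-negative library, 41.9-fold higher (34.9 to 50.6). Il1b had 267 CPM in CD45-positive and 25.3 CPM in CD45-negative cells, 10.5-fold higher (10.1 to 11.0). Il1rn had 71.4 CPM in CD45-positive and 6.07 CPM in CD45-negative cells, 11.8-fold higher (10.7 to 12.9). Il1r2 had 20.04 CPM in CD45-positive and 3.799 CPM in CD45-negative cells, 5.28-fold higher (4.67 to 5.98). These 4 genes, whose products supply or restrain the signal, were all higher in CD45-positive cells. Il1r1 had 1.61 CPM in CD45-positive and 15.8 CPM in CD45-negative cells, where it was 9.85-fold higher (8.16 to 11.99). Il1rap had 10.2 CPM in CD45-positive and 91.8 CPM in CD45-negative cells, 9.02-fold higher in CD45-negative cells (8.37 to 9.73). Il18 had 26.9 CPM in CD45-positive and 74.3 CPM in CD45-negative cells, 2.77-fold higher in CD45-negative cells (2.63 to 2.91). A gene was called at a 2-fold difference with at least 20 UMIs over both libraries. By that rule 4 of the 7 genes were higher and 3 lower in the CD45-positive library, beside 16.5% higher and 41.0% lower among all 18379 genes, so being called was common, while the calls on the higher side were more frequent than among all genes. Under a median-of-ratios scaling the log2 ratio of Il18 was -0.95, under the 2-fold limit, in place of -1.47.

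**Figure D1:**
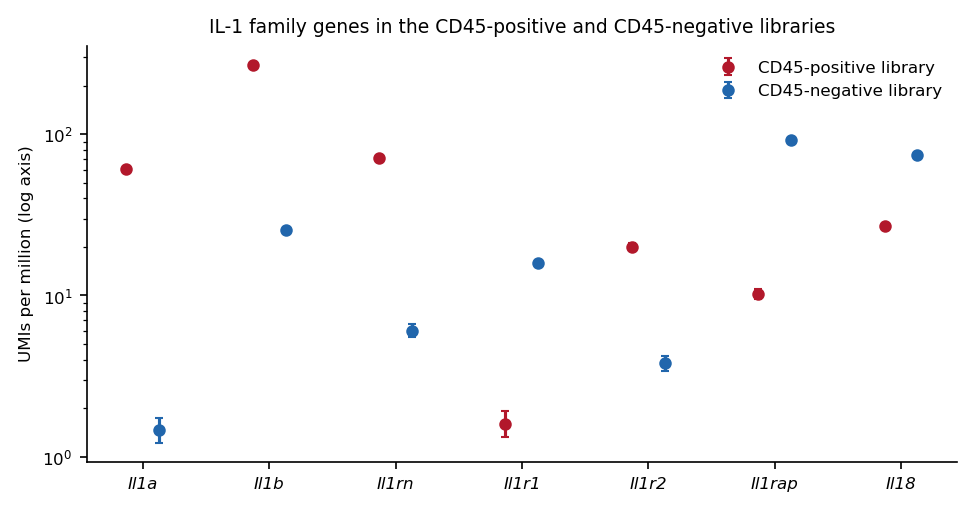
Level of the 7 genes in CPM (log axis) in the CD45-positive library (red) and the CD45-negative library (blue), with exact 95% Poisson intervals as bars. Il1a, Il1b, Il1rn and Il1r2 sit higher in the CD45-positive library, and Il1r1, Il1rap and Il18 higher in the CD45-negative library.

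The ligand transcripts found on the CD45-negative side came mostly from a small number of leukocytes. In that library 138 cells had an immune class name and 26 more lay in unnamed clusters with immune markers, out of 12860 cells. Of its Il1a UMIs 72.7% came from the named immune cells and 21.5% from the unnamed ones. Of its 2100 Il1b UMIs 61.7% and 31.2% came from the same cells, and the other 12696 cells held Il1b at 1.83 CPM. By contrast 99.8% of the Il1r1 UMIs, 99.2% of the Il1rap UMIs and 99.0% of the Il18 UMIs came from those other cells. The 22 neutrophil-like cells alone held 48.0% of the Il1b and 51.7% of the Il1r2 UMIs of the library.

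Il1a (ENSMUSG00000027399; mm10 chromosome 2, 129299610 to 129309972, minus strand, protein coding) and Il1b (ENSMUSG00000027398; mm10 chromosome 2, 129364570 to 129371139, minus strand, protein coding) lie next to each other in the same orientation. Both ligands are induced genes in myeloid cells, and their promoters are shown because the 2 genes were carried by overlapping but unequal sets of cells. The 250 bases before each start, from RefSeq on GRCm38.p6, are chr2:129309973-129310222 and chr2:129371140-129371389, both on the minus strand and written 5′ to 3′, with the TATA box in capitals.
Il1a: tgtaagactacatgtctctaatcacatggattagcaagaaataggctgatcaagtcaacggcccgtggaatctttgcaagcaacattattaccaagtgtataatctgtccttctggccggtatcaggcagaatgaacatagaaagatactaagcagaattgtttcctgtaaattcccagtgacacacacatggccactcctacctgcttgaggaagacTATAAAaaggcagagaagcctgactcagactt
Il1b: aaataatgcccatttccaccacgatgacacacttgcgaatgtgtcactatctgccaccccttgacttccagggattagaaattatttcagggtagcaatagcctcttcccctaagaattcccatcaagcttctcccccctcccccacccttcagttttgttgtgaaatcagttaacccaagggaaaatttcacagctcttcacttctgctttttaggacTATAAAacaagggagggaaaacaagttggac
The letters TATAAA were found 32 to 27 bases before the start of Il1a and 31 to 26 bases before that of Il1b, while 12.4% of 32851 promoters hold them on either strand. The AP-1 letters TGANTCA were found 12 to 6 bases before the start of Il1a and not in the Il1b window, against 6.75% of promoters. The C/EBP letters TTNNGNAA were found 43 to 36 bases before the start of Il1a and 91 to 84 bases before that of Il1b, and 36.8% of promoters hold them. Neither window held the NF-kappaB consensus, which 3.90% of promoters hold. Both held few CpG pairs, 3 for Il1a and 2 for Il1b, against a median of 6.

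Il1b was highest in the neutrophil-like, monocyte-like and dendritic cell-like classes. In the CD45-positive library it had 2946 CPM (2827 to 3068) in 146 neutrophil-like cells, 1317 (1266 to 1369) in 231 monocyte-like cells, 1054 (982 to 1129) in 69 migratory dendritic cell-like cells and 935 (904 to 966) in 335 dendritic cell-like cells. Each level in that order was apart from the next beyond its counting interval. Microglia-like cells had 63.5 CPM (60.9 to 66.1) over 3126 cells, T cell-like cells 15.5 CPM and NK cell-like cells 13.6 CPM. At least 1 Il1b UMI was found in 71.2% of neutrophil-like, 59.3% of monocyte-like, 61.5% of dendritic cell-like and 18.7% of microglia-like cells, at medians of 3405.5, 7725, 11308 and 9275 UMIs. T cell-like cells, which should lack the transcript, had one in 6.92% of cells at a median of 4726.5 UMIs. With each cell thinned to 1000 UMIs the shares were 61.8%, 38.2%, 35.6% and 4.15%, against 1.72% of T cell-like cells. Among the 10 CD45-positive classes with at least 50 cells, plasmacytoid dendritic cell-like cells had the lowest level, 6.61 CPM from 3 UMIs. The neutrophil-like value depended on the clustering, from 883 CPM with no cluster divided further to 3620 CPM with each cell weighing the same, and so did those of Il1rn, from 381 to 1675 CPM, Il1r2, from 92.2 to 385 CPM, and Il1rap, under the same alternatives.

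Il1a was shared between microglia and neutrophils, and dendritic cells carried little of it. Neutrophil-like cells had 129 CPM (105 to 156), microglia-like cells 87.8 CPM (84.8 to 90.9), monocyte-like cells 22.8 CPM (16.6 to 30.6) and migratory dendritic cell-like cells 10.5 CPM (4.53 to 20.7). Dendritic cell-like cells had 4.57 CPM, and T cell-like cells 3.34 CPM, with overlapping intervals. The 3126 microglia-like cells held 69.2% of the Il1a UMIs of the CD45-positive library but 11.5% of the Il1b UMIs. An Il1a UMI was found in 29.5% of neutrophil-like and 39.8% of microglia-like cells, or 10.7% and 7.04% after thinning, against 1.64% and 0.272% of T cell-like cells. The number of Il1b UMIs per Il1a UMI followed the class. It was 205 (128 to 352) in dendritic cell-like, 100.4 (50.7 to 233) in migratory dendritic cell-like, 57.8 (43.0 to 79.8) in monocyte-like, 22.9 (18.7 to 28.2) in neutrophil-like and 0.723 (0.684 to 0.763) in microglia-like cells. The ligands' joint detection was also counted in microglia-like cells. Among all microglia-like cells with an Il1a UMI, 25.9% also had an Il1b UMI, against 14.0% of those without, at medians of 12946 and 7523 UMIs. After thinning the shares were 8.70% of 207 cells and 3.805% in the class, and 20.6% of 68 cells and 11.0% in its Tnf and Ccl4 cluster. In its largest, the P2ry12 cluster, they were 23.6% (20.8 to 26.7) and 15.3% before thinning, the direction of the class. After thinning they were 1.85% of 108 cells and 2.91% there, too few joint detections to give a direction.

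**Figure D2:**
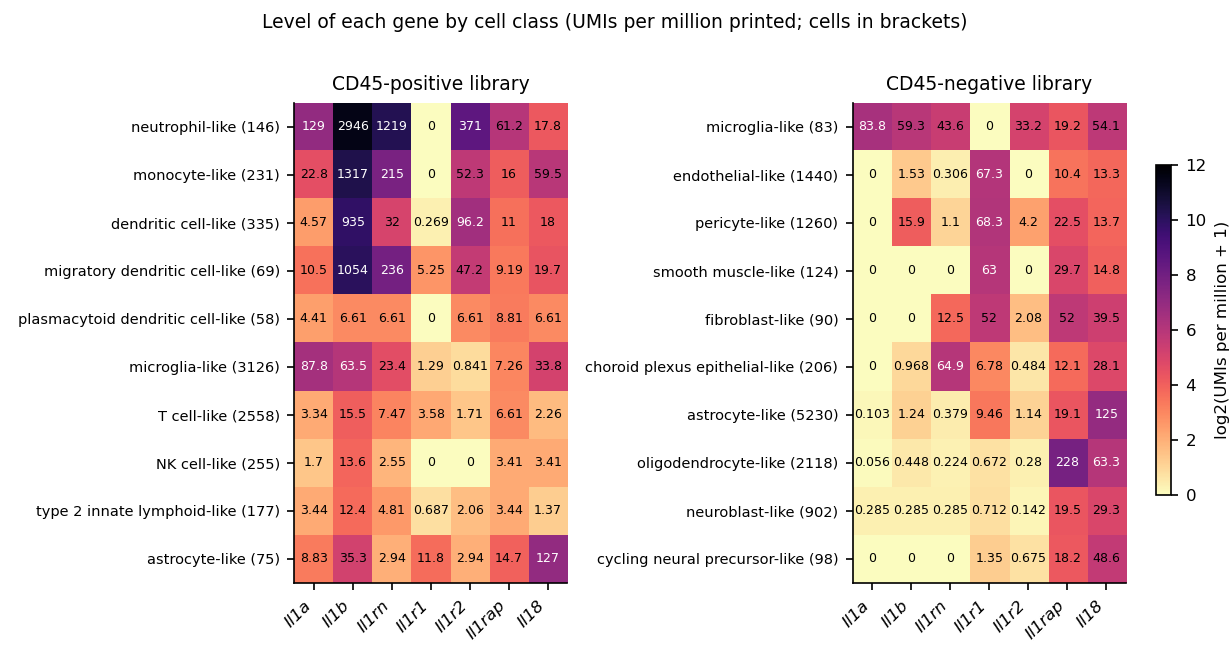
Level of each gene in cell classes of at least 50 cells, in CPM (printed) and as log2(CPM + 1) (colour), for the CD45-positive library (left) and the CD45-negative library (right), with the number of cells in brackets. Ligand, antagonist and decoy transcripts peak in neutrophil-like cells at 2946 for Il1b, and Il1r1 and Il1rap in vascular and oligodendrocyte-like cells at 68.3 and 228.

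Neutrophil-like cells were set against microglia-like cells, the other class with much Il1a. Of the 7 genes 4 were called higher and 0 lower in neutrophil-like cells, beside 12% higher and 15.1% lower among 12495 genes. Il1b was 46.4-fold higher (43.8 to 49.2), Il1rn 52.0-fold (47.3 to 57.1), Il1r2 441-fold (302 to 665) and Il1rap 8.42-fold (6.06 to 11.5). These folds share the dependence of the neutrophil-like levels on the clustering. Il1a was 1.47-fold higher (1.19 to 1.79), short of the call. Il1r1 had 0 UMIs in neutrophil-like cells, which allows up to 3.82 CPM, against 1.29 CPM in microglia-like cells. The neutrophil-like cells also carried microglia markers, with a sum of 7925 CPM over the 10 markers, against 14161 CPM in microglia-like and 614 CPM in T cell-like cells. Leaving out cells with more than 0.5% of such UMIs kept 108 of 146 cells and brought the sum to 1887 CPM. The levels were then 129 CPM for Il1a, 3487 for Il1b, 1644 for Il1rn, 427 for Il1r2 and 67.3 for Il1rap, all at or above those of the whole class. Early activation and dissociation genes, 18 that cells can switch on during handling, summed to 14556 CPM in neutrophil-like and 3928 CPM in microglia-like cells, and their part in these differences was not tested.

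Within the neutrophil-like class the ligand and its antagonist were divided between subclusters. In 50 cells high in S100a9 and S100a8, at a median of 4334.5 UMIs, Il1b had 4539 CPM (4330 to 4755) and was found in 96.0% of cells, and Il1rn had 479 CPM (413 to 553). In 96 cells led by Il1f9, Slpi and Clec4d, at a median of 2883 UMIs, Il1b had 1368 CPM (1255 to 1488), and Il1rn had 1951 CPM (1816 to 2094) and was found in 90.6% of cells. S100a9 was at 17125 and 2296 CPM in these subclusters, against 9.62 CPM in microglia-like cells led by Gpr34 and P2ry12, while the granule genes Ngp and Camp were at 0 UMIs in the second. Il1r2 followed the first subcluster, with 651 CPM (573 to 736) in S100a9-high and 93.9 CPM (66.1 to 129) in Il1f9-led cells. Il1a did not separate them, at 105 and 152 CPM with overlapping intervals. Among Il1b-positive neutrophil-like cells 70.2% also had an Il1rn UMI, against 88.1% of the Il1b-negative ones, or 50.6% and 72.0% after thinning. These shares pool the subclusters. Within the Il1f9-led cells alone they were 89.3% (78.1 to 96.0) and 92.5%, a difference within the counting interval, or 71.1% and 78.3% after thinning. With microglia-marker-rich cells left out, Il1b had 7169 CPM in 33 S100a9-high cells and 1396 CPM in 75 Il1f9-led cells, and Il1rn 508 and 2289 CPM.

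The antagonist was compared with the ligands as Il1rn UMIs per UMI of Il1a plus Il1b. The ratio was 1.28 (1.15 to 1.43) in the Il1f9-led and 0.103 (0.0883 to 0.120) in the S100a9-high neutrophil-like cells, or 1.496 and 0.0696 without the cells rich in microglia markers. Migratory dendritic cell-like cells had 0.222 (0.188 to 0.261) and monocyte-like cells 0.161 (0.145 to 0.178). Dendritic cell-like cells led by Mgl2 and Clec10a had 0.0440 (0.0363 to 0.0530), and those led by Clec9a and Xcr1, markers of cross-presenting dendritic cells, had 1 Il1rn UMI beside 817 ligand UMIs. Antagonist UMIs thus exceeded those of both ligands together in 1 of the 9 myeloid clusters plotted. UMIs are not protein, and the ratio leaves out how well each transcript is captured.

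**Figure D3:**
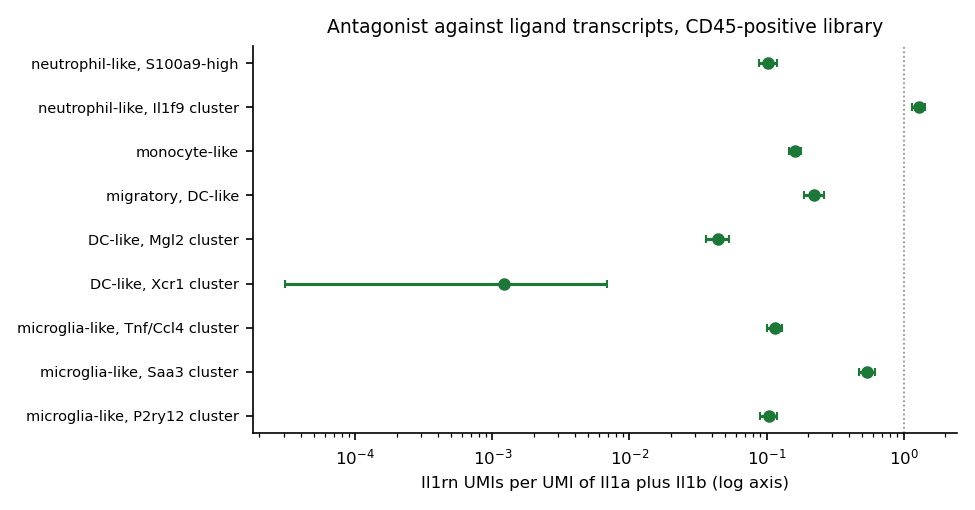
UMIs of Il1rn per UMI of Il1a plus Il1b (log axis) in 9 myeloid clusters of the CD45-positive library, with exact 95% intervals and a dotted line at 1. The Il1f9-led neutrophil-like cells lie above the line at 1.28, and the Xcr1 dendritic cell-like cells lowest at 0.00122 from 1 UMI.

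Il1rn (ENSMUSG00000026981; mm10 chromosome 2, 24336853 to 24351494, plus strand, protein coding) had 1219 CPM (1142 to 1298) in neutrophil-like cells. Migratory dendritic cell-like cells followed with 236 CPM (203 to 273) and monocyte-like cells with 215 CPM (195 to 237), whose intervals overlap. Dendritic cell-like cells had 32.0 CPM, microglia-like cells 23.4 CPM and T cell-like cells 7.47 CPM. An Il1rn UMI was found in 75.3% of neutrophil-like and 1.76% of T cell-like cells, or 58.8% and 0.679% after thinning. On the CD45-negative side choroid plexus epithelial-like cells, of the tissue that makes cerebrospinal fluid, led the classes of at least 50 cells. This class had 64.9 CPM (54.4 to 76.8) over 206 cells, where Il1a had 0 and Il1b 2 UMIs. Of its 134 Il1rn UMIs 96 came from 35 cells led by Cxcl5 and Mmp3, at 248 CPM (201 to 302), and 29 of these came from 1 cell. The other CD45-negative classes of at least 50 cells had at most 12.5 CPM, except for 83 microglia-like cells with 43.6 CPM. With each library clustered alone microglia-like cells led instead, at 70.8 CPM. The 22 CD45-negative neutrophil-like cells, too few for this ranking, had 716 CPM (602 to 845).

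Microglia-like cells were not uniform for the ligands. The clusters were led by Tnf and Ccl4 (305 cells), by Saa3 and Ccl12 (993 cells), and by Gpr34 and P2ry12, genes of resting microglia (1828 cells). Il1a had 261 CPM (247 to 275) in the Tnf and Ccl4 cluster and 66.3 CPM (63.0 to 69.7) in the P2ry12 cluster, 3.94-fold higher (3.65 to 4.24). Il1b had 281 CPM (267 to 296) and 27.3 CPM (25.2 to 29.6) in these clusters, 10.3-fold higher (9.36 to 11.3), and Il1rn was 6.38-fold higher (5.35 to 7.61). So 3 of the 7 genes were called higher and 0 lower in the Tnf and Ccl4 cluster, beside 3.49% higher and 3.28% lower of 12190 genes. Il18 did not follow, with 31.2 CPM in the Tnf and Ccl4 cluster and 34.2 CPM in the P2ry12 cluster, a ratio of 0.912 (0.762 to 1.08). An Il1a UMI was found in 68.2% of Tnf and Ccl4 and 44.4% of P2ry12 cells, or 22.3% and 5.92% after thinning. The sum of the 18 early activation genes, Ccl4 among them, moved with this difference, at 16572 CPM in the Tnf and Ccl4 cluster and 2038 CPM in the P2ry12 cluster, and its part in the result was not tested. Between the whole libraries 14 of these 18 genes were called higher and 0 lower in CD45-positive cells, beside 16.5% and 41.0% of all genes. Their median log2 ratio was 1.91, beside -0.57 over all genes. The largest ratios were those of Ccl4 at 21.5-fold, Ccl3 at 17.7-fold and Zfp36 at 8.61-fold.

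In the Saa3 cluster Il1rn was called higher and Il1b was not. Il1rn had 38.7 CPM (34.5 to 43.3) there and 9.71 CPM (8.47 to 11.1) in the P2ry12 cluster, 3.99-fold higher (3.34 to 4.76), while Il1b was 1.12-fold higher (0.959 to 1.30) and Il1a had a ratio of 0.621 (0.549 to 0.700). The log2 ratio of Il1b, 0.16, lay above and that of Il1a, -0.69, at the median over all genes in this comparison. It had 1 of the 7 genes called higher, beside 1.13% of 12155 genes, and 2 lower, Il1r1 with 4 against 37 UMIs and Il1rap at 3.91 against 8.22 CPM, beside 36.9% lower. The ratio of Il1rn to both ligands was 0.540 (0.469 to 0.622) in the Saa3 cluster, against 0.104 (0.0899 to 0.119) in the P2ry12 cluster. Its microglia markers summed to 7728 CPM, against 16248 CPM in the P2ry12 cluster, and none was among its 10 leading genes, so its class name is uncertain. Its early activation sum was 1422 CPM.

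**Figure D4:**
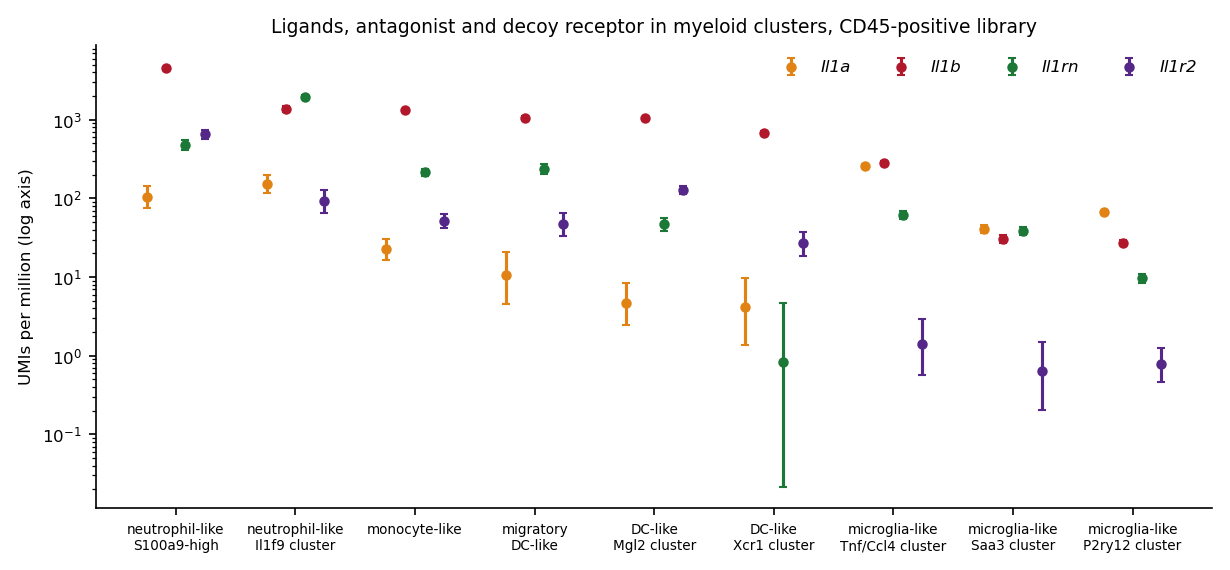
Il1a, Il1b, Il1rn and Il1r2 in CPM (log axis) in 9 myeloid clusters of the CD45-positive library, with exact 95% Poisson intervals. Il1b lies highest in S100a9-high neutrophil-like cells at 4539, Il1rn in the Il1f9 cluster at 1951, and Il1a in the Tnf and Ccl4 microglia-like cluster at 261.

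Microglia-like cells were also found in the CD45-negative library, with few ligand UMIs. Over 3126 CD45-positive and 83 CD45-negative cells, Il1a had 87.8 and 83.8 CPM, a ratio of 1.05 (0.788 to 1.42), and Il1b 63.5 and 59.3 CPM, a ratio of 1.07 (0.763 to 1.55). Of the CD45-negative UMIs 31 of 48 for Il1a and 29 of 34 for Il1b came from 1 cell for each gene, and without it the levels were 30.7 CPM (17.9 to 49.2) and 9.03 CPM (2.93 to 21.1), under those of the CD45-positive cells. The Saa3 cluster took 993 of 3126 microglia-like cells on the CD45-positive side and 53 of 83 on the CD45-negative side, where its median was 880 UMIs. Of the 7 genes 0 were called higher and 2 were called lower in the CD45-positive cells, Il1rap with 11 UMIs on the CD45-negative side and Il1r2 with 15 of 19 UMIs in 1 cell, beside 4.24% higher and 9.69% lower of 12518 genes. Neutrophil-like cells had 2946 CPM of Il1b in the CD45-positive library against 5156 CPM (4842 to 5484) in the 22 CD45-negative ones, but different clusters held most of the class. The S100a9-high cluster took 50 of 146 neutrophil-like cells on the CD45-positive side and 21 of 22 on the CD45-negative side. Within that cluster Il1b had 4539 CPM (4330 to 4755) in CD45-positive and 5415 CPM (5083 to 5763) in CD45-negative cells.

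Il1r1 (ENSMUSG00000026072; mm10 chromosome 1, 40225080 to 40317257, plus strand, protein coding), the receptor that signals, had its highest levels in vascular and perivascular cells. In the CD45-negative library it had 68.3 CPM (60.9 to 76.3) in 1260 pericyte-like, 67.3 CPM (61.1 to 73.9) in 1440 endothelial-like, 63.1 CPM (43.7 to 88.1) in 124 smooth muscle-like and 52.0 CPM (33.6 to 76.7) in 90 fibroblast-like cells. These 4 classes did not differ beyond their counting intervals, and which of them led changed with the clustering. Astrocyte-like cells had 9.46 CPM (8.38 to 10.6), choroid plexus epithelial-like cells 6.78 CPM, neuroblast-like cells 0.712 CPM and oligodendrocyte-like cells 0.672 CPM. Of the 1312 Il1r1 UMIs of this library endothelial-like cells held 439 and pericyte-like cells 309. The 5230 astrocyte-like cells, the largest class, held 275 despite their lower level. An Il1r1 UMI was found in 18.9% of pericyte-like and 13.8% of endothelial-like cells at medians of 3434.5 and 4449.5 UMIs. Oligodendrocyte-like cells had one in 0.567% of cells at a median of 8305 UMIs. After thinning the shares were 6.77%, 5.95% and 0.145%.

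Among endothelial-like cells Il1r1 was highest in those named venous, after the vessels where leukocytes usually leave the blood. Of their naming markers Ackr1, Selp, Lcn2, Icam1 and Vcam1 are also known to be induced through the interleukin-1 receptor. A venous origin and an induced state thus cannot be told apart by the name. Il1r1 had 517 CPM (445 to 598) in 60 venous endothelial-like cells and 41.8 CPM (36.8 to 47.2) in the other 1380 endothelial-like cells, 12.4-fold higher (10.2 to 15.03). By subset it had 35.4 CPM (28.4 to 43.8) in capillary and 8.22 CPM (3.31 to 16.9) in arterial endothelial-like cells, and 56.9 CPM (48.6 to 66.3) in the 686 cells with no subset name. An Il1r1 UMI was found in 66.7% of venous cells at a median of 5740.5 UMIs and in 11.5% of other endothelial-like cells at a median of 4411.5 UMIs, or 36.7% and 4.44% after thinning. The richest venous cell held 18 of the 181 UMIs. The co-receptor showed no such step, with Il1rap at 11.4 CPM (4 UMIs) in venous and 10.4 CPM in other endothelial-like cells, a ratio of 1.10 (0.292 to 2.96). Of the 3 members with enough UMIs 1 was called higher and 0 lower in venous cells, beside 4.36% higher and 10.3% lower of 11157 genes. Il1r2 had 0 UMIs beside 439 of Il1r1 in all endothelial-like cells, which allows at most 0.00844 Il1r2 UMIs per Il1r1 UMI.

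A cluster without a name also carried Il1r1. Its 193 CD45-negative cells had pericyte markers at a median of 1138 UMIs, were led by Il6, Il11 and Ccl11, and had Il1r1 at 273 CPM (234 to 317) and in 26.4% of cells, or 18.9% after thinning. That is above the 68.3 CPM of the pericyte-like class, although 27 of the 173 UMIs came from 1 cell. Il1r2 had 9 UMIs there. In the pericyte-like class itself 62 of 72 Il1b and 18 of 19 Il1r2 UMIs lay in a subcluster of 3 cells with 0 Il1r1 UMIs, so neither describes the class.

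Astrocyte-like cells, the class that the disease targets, carried more of the receptor in 1 cluster than in the rest. In 603 cells led by Ptx3 and Tgm1, Il1r1 had 31.5 CPM (25.8 to 38.2), against 6.64 CPM (5.68 to 7.71) in the other 4627 astrocyte-like cells, 4.75-fold higher (3.69 to 6.09). Il1rap had 40.3 CPM (33.8 to 47.8) in the Ptx3 cluster and 16.4 CPM (14.9 to 18.1) in the others, 2.45-fold higher (2.00 to 2.99). Il1r2 was 7.35-fold higher (3.47 to 15.5) on 16 and 17 UMIs. Il18 was level, at 123 and 125 CPM, a ratio of 0.990 (0.890 to 1.10). So 3 of the 5 genes with enough UMIs were called higher and 0 lower, beside 8.40% higher and 13.9% lower of 14319 genes. The early activation sum was 1273 CPM in the Ptx3 cluster and 376 CPM in the other astrocyte-like cells, and its part in these differences was not tested. Over all astrocyte-like cells 13.4% of those with an Il1r1 UMI also had an Il1rap UMI (9.26 to 18.4), against 8.403% of those without. The medians were 7068 and 5164 UMIs. In the Ptx3 cluster the shares were 21.25% and 12.8%, at medians of 6714.5 and 4028 UMIs. In the other astrocyte-like cells they were 9.21% (5.13 to 14.97) and 7.89%, a difference within the counting interval. After thinning they were 22.2% of 18 cells and 2.63% in the Ptx3 cluster, and 0% of 30 cells and 1.60% in the others.

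**Figure D5:**
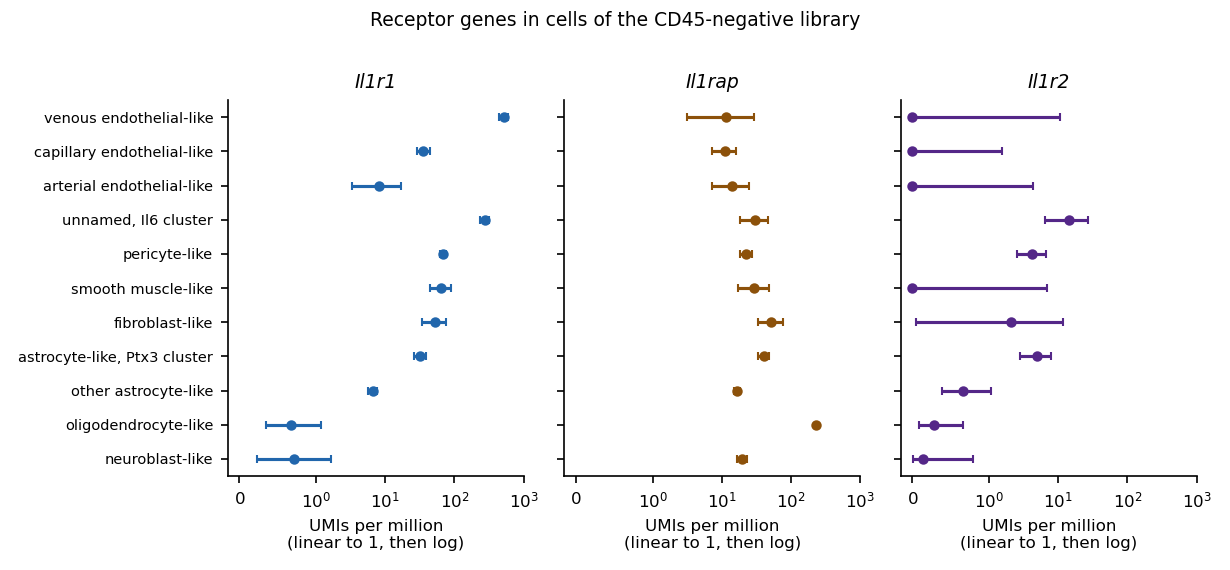
Il1r1 (left), Il1rap (middle) and Il1r2 (right) in CPM (linear up to 1, then log) in classes and clusters of the CD45-negative library, with exact 95% Poisson intervals. Il1r1 lies highest in venous endothelial-like cells at 517 and Il1rap in oligodendrocyte-like cells at 228, while Il1r2 has 0 UMIs in the endothelial subsets.

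Leukocytes carried little Il1r1. The CD45-positive library held 119 Il1r1 UMIs, of which 29 came from 74 T cell-like cells led by Cd163l1, Trdc and Tcrg-C1, genes of gamma-delta T cells. Il1r1 was at 56.1 CPM (37.6 to 80.6) and in 25.7% of these cells, against 3.58 CPM in T cell-like cells as a whole. Il1r2 had 2 and Il1rap 1 UMI in this cluster. Neutrophil-like and monocyte-like cells had 0 Il1r1 UMIs, which allows up to 3.82 and 1.55 CPM.

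Il1r2 (ENSMUSG00000026073; mm10 chromosome 1, 40074079 to 40125231, plus strand, protein coding), the decoy, was highest in classes with little or no Il1r1. It had 371 CPM (330 to 416) in neutrophil-like, 96.2 CPM (86.5 to 107) in dendritic cell-like, 52.3 CPM (42.6 to 63.5) in monocyte-like and 47.2 CPM (33.1 to 65.4) in migratory dendritic cell-like cells, the last pair with overlapping intervals. Microglia-like cells had 0.841 CPM and T cell-like cells 1.71 CPM, and Il1r1 was low there too, at 1.29 and 3.58 CPM. Among dendritic cell-like cells the Mgl2 cluster had 129 CPM (115 to 144) and the Xcr1 cluster 26.8 CPM (18.4 to 37.9). Detection of the decoy and of Il1b in the same cell was counted within classes. An Il1b UMI was found in 89.8% of neutrophil-like cells with an Il1r2 UMI, against 58.6% of those without, or 83.3% and 57.0% after thinning, where both genes were highest in the S100a9-high cluster. In dendritic cell-like cells the shares were 74.8% (66.3 to 82.1) and 53.4%, or 47.8% of 23 cells and 34.7% after thinning. In monocyte-like cells they were 67.3% (52.9 to 79.7) and 57.0%, a difference within the counting interval. After thinning they were 35.3% of 17 cells and 38.5% there, too few cells to set this class apart from the others.

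Il1rap (ENSMUSG00000022514; mm10 chromosome 16, 26581704 to 26730117, plus strand, protein coding) is needed by the receptors for interleukin-1, interleukin-33 and interleukin-36. Its promoter is shown because its base composition differs from that of the ligand promoters. The 250 bases at its start, chr16:26581455-26581704 on the plus strand of GRCm38.p6, are written 5′ to 3′ with CG pairs in capitals.
Il1rap: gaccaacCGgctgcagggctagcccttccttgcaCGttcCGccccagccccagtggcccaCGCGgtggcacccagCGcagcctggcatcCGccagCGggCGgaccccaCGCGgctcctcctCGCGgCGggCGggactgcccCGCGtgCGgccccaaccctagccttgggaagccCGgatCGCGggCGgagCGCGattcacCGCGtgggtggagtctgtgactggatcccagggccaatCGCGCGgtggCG
The window had 74.4% G and C and 30 CG pairs, more than 94.1% of promoters, and none of the TATA, AP-1, C/EBP and NF-kappaB letters searched.

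Oligodendrocyte-like cells carried most of the co-receptor transcripts. Il1rap had 228 CPM (221 to 235) in 2118 oligodendrocyte-like cells of the CD45-negative library, 53.6% of its UMIs, and 285 CPM (274 to 297) in 678 cells of an unnamed cluster with oligodendrocyte markers, a further 32.0%. The next classes were far lower, with 52.0 CPM (33.6 to 76.7) in fibroblast-like, 29.7 CPM (16.96 to 48.2) in smooth muscle-like, 22.5 CPM (18.4 to 27.4) in pericyte-like and 19.1 CPM (17.6 to 20.8) in astrocyte-like cells. An Il1rap UMI was found in 73.6% of oligodendrocyte-like and 8.62% of astrocyte-like cells at medians of 8305 and 5240 UMIs, or 21.4% and 1.78% after thinning. Oligodendrocyte-like cells had Il1r1 at 0.672 CPM, 12 UMIs over 2118 cells. The 37 oligodendrocyte-like cells in the CD45-positive library had Il1rap at 214 CPM (161 to 279). Among CD45-positive classes of at least 50 cells neutrophil-like cells led with 61.2 CPM (45.1 to 81.1), from 20.8 CPM with no cluster divided further to 94.3 CPM with each cell weighing the same. With each library clustered alone oligodendrocyte-like cells led there instead, at 108 CPM. Monocyte-like cells had 16.04 CPM and microglia-like cells had 7.26 CPM.

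Il18 (ENSMUSG00000039217; mm10 chromosome 9, 50554827 to 50581840, plus strand, protein coding) had its highest level in astrocyte-like cells. It had 125 CPM (121 to 129) in CD45-negative astrocyte-like cells, 58.7% of its UMIs, and 127 CPM (91.6 to 170) in the 75 such CD45-positive cells. Oligodendrocyte-like cells had 63.3 CPM (59.7 to 67.1), microglia-like cells of the CD45-negative library 54.1 CPM (36.8 to 76.8), pericyte-like cells 13.7 CPM and endothelial-like cells 13.3 CPM. An Il18 UMI was found in 43.8% of astrocyte-like and 5.56% of endothelial-like cells at medians of 5240 and 4449.5 UMIs, or 12.2% and 1.49% after thinning. In the CD45-positive library monocyte-like cells had 59.5 CPM (49.1 to 71.4) and microglia-like cells 33.8 CPM (31.9 to 35.7), and the microglia-like class held 60.5% of the UMIs. Il18 overlaps Bco2 on the opposite strand, which had 568 and 260 UMIs in the CD45-positive and CD45-negative libraries, and no source used here says whether the counting used strand. Il1a also overlaps an antisense gene, Gm14023, with 174 and 65 UMIs in the same libraries, Il1b overlaps Il1bos, with 37 and 4, Il1r2 overlaps Gm16894, with 31 and 46, and Il1rap overlaps Gm20319, with 5 and 40.

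The receptors of interleukin-18 lay on lymphocytes. Il18r1, the ligand-binding chain, had 33.3 CPM in the CD45-positive library and 0.169 CPM in the CD45-negative library, 197-fold higher (117 to 361), with 164 CPM in T cell-like and 152 CPM in NK cell-like cells. Il18rap, its co-receptor, had 22.0 and 0.603 CPM in CD45-positive and CD45-negative cells, with 140 CPM in NK cell-like cells. Il18bp, the soluble inhibitor, was at 7.26 CPM in CD45-positive and 9.53 CPM in CD45-negative cells and at 91.0 CPM in choroid plexus epithelial-like cells. Il1rl1, the interleukin-33 receptor, was 344-fold higher (147 to 1062) in CD45-positive cells, with 680 CPM in type 2 innate lymphoid-like cells, for which it was one of the naming markers. Il1rapl1, a neuronal member of the receptor family, was 94.8-fold higher in CD45-negative cells. Of 8 such receptors and inhibitors 7 had enough UMIs. In CD45-positive cells 4 were called higher and 1 lower, beside 16.5% higher and 41.0% lower among all genes. The median log2 ratio was 3.11 beside -0.57 over all genes.

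Of 6 other family ligands in the files 2 had enough UMIs. Il33, an alarmin, had 5.87 CPM in the CD45-positive library and 647 CPM in the CD45-negative library, where it was 110-fold higher (100.2 to 121), with 1206 CPM in oligodendrocyte-like cells. Il1f9, which encodes interleukin-36 gamma, had 16.9 CPM in CD45-positive and 1.28 CPM in CD45-negative cells, 13.3-fold higher (10.9 to 16.3), with 576 CPM in neutrophil-like cells. The list's median was -1.53, which with 2 genes describes neither.

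Genes that process the ligands lay mostly on the CD45-positive side, with Il1a and Il1b but not Il18. Of 16 inflammasome and processing genes 14 were called higher and 1 lower in CD45-positive cells, beside 16.5% higher and 41.0% lower among all genes. Their median log2 ratio was 4.41 beside -0.57 over all genes. The largest were Nlrp1b at 16.1 and 0.193 CPM in CD45-positive and CD45-negative cells (83.6-fold), Naip2 at 51.1 and 1.12 CPM (45.5-fold) and Nlrp1a at 4.12 and 0.109 CPM (37.9-fold), all sensors. The calpain gene Capn2 was the one called lower, at 16.1 CPM in CD45-positive and 64.0 CPM in CD45-negative cells. By class Nlrp3 had 131 CPM in neutrophil-like, 57.4 CPM in monocyte-like and 41.6 CPM in microglia-like cells. Casp1 had 34.4 CPM in neutrophil-like, 54.9 CPM in monocyte-like and 45.01 CPM in microglia-like cells, against 1.45 CPM in CD45-negative astrocyte-like cells, the class with the most Il18.

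Of 19 signalling genes below the receptor 3 were called higher and 6 lower in CD45-positive cells, beside 16.5% higher and 41.0% lower among all genes. Their median log2 ratio was -0.01, beside -0.57 over all genes, and turned to 0.45 under TMM scaling. The share called higher was near that of all genes. Myd88, the adaptor, had 44.8 CPM in CD45-positive and 11.3 CPM in CD45-negative cells, 3.95-fold higher, followed by Irak4 at 2.97-fold and Mapk14 at 2.42-fold. Peli3 was 5.05-fold, Tab1 2.60-fold and the inhibitor Tollip 2.59-fold higher in CD45-negative cells.

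Genes known to be induced through the interleukin-1 receptor were measured in cells with and without its transcript. Of 24 such genes 10 were called higher and 11 lower in CD45-positive cells, beside 16.5% and 41.0% of all genes, at a median log2 ratio of 0.33 beside -0.57. The share called lower was near that of all genes. The highest ratios were those of Csf2, with 731 UMIs in the CD45-positive and 0 in the CD45-negative library, of Tnfaip3 at 14.6-fold and of Cxcl2 at 7.04-fold. The lowest were those of Serpina3n, at 3.28 CPM in CD45-positive and 405 CPM in CD45-negative cells, Csf3 at 0.0675 and 4.93 CPM, and Ackr1 at 0.351 and 12.4 CPM. Summed over the list, venous endothelial-like cells had 19276 CPM and other endothelial-like cells 2317 CPM, with Lcn2 at 10268 and 738 CPM and Vcam1 at 2552 and 102 CPM. Ackr1, Selp, Lcn2, Icam1 and Vcam1 were also among the markers that named the venous cells, and made up 81.0% of the venous sum and 41.3% of the other, so the name largely set this sum. Over the 19 genes left the sums were 3655 CPM in venous and 1360 CPM in other endothelial-like cells. The unnamed Il6 cluster had 13231 CPM and the pericyte-like class 1162 CPM, with Saa3, Ccl2 and Cxcl1 leading in the Il6 cluster, whose own leading gene Il6 is in the list. The Ptx3 astrocyte-like cluster had 3835 CPM and the other astrocyte-like cells 686 CPM, with Lcn2 at 1474 and 42.4 CPM. Oligodendrocyte-like cells, with the co-receptor but little Il1r1, had 1126 CPM. Of the other classes with Il1r1, fibroblast-like cells had 4867 CPM and smooth muscle-like cells 614 CPM. In the CD45-positive library neutrophil-like and monocyte-like cells, with 0 Il1r1 UMIs, had 13448 and 6901 CPM. High sums were thus found both with and without Il1r1. The clusters were made from these genes among others, so the sums are descriptions, and whether the receptor induced the genes was not tested.

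The genes with the most similar class profile were found over 20 class-by-library units and 14412 genes, by Pearson's r of log2(CPM + 1), given as a description. Units of the same library share depth and preparation. For Il1a they were Adora3, Gpr84 and Adgre1 (r of 0.974, 0.973 and 0.971), and for Il1b Hrh2, Ccl6 and Wfdc17 (0.938, 0.937 and 0.931). For Il1rn they were Rab20, Clec4d and Uap1l1 (0.925, 0.901 and 0.894), and for Il1r2 Trem1, F630028O10Rik and Ly6i (0.936, 0.912 and 0.910). For Il1r1 they were Lrrc32, Lamb2 and Reck (0.944, 0.943 and 0.941), for Il1rap Arhgap23, Bcas1 and Sirt2 (0.846, 0.838 and 0.837), and for Il18 Ston2, Apoe and Hacd1 (0.894, 0.877 and 0.877). The lists moved with the pseudocount: at 10 in place of 1 none of the 3 genes remained for Il1a and Il1b, 1 each for Il1rn, Il1r1 and Il1r2, and 2 each for Il1rap and Il18.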

How the data were processed

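Brain cells of a CD45-positive and a CD45-negative subset were measured, with 1 library each, by droplet RNA sequencing of transcript 3' ends. The authors deposited raw UMI counts for each gene in each barcode, produced by Cell Ranger 6.1.2 according to the file headers, on build mm10, per the submitters' processing notes. Reads near 3' ends do not separate isoforms. Gene positions came from GENCODE M21 and promoter sequences from RefSeq (GRCm38.p6), in which all 7 genes matched.

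Filters required 500 UMIs and 200 genes in a barcode and allowed 20% mitochondrial UMIs. Scrublet calls, 175 CD45-positive and 804 CD45-negative barcodes, were removed as doublets. The files held 76182401 UMIs in 8662 CD45-positive and 92691820 UMIs in 14524 CD45-negative barcodes. Both libraries were clustered together in scanpy 1.11.5 (2000 variable genes without the 7 members, 30 components, 15 neighbours, Leiden resolution 1 with leidenalg 0.10.2, mixed clusters again at 0.5). Clusters were named "-like" from 25 marker lists, by limits set after the clusters were seen, and endothelial-like cells from 3 further lists. Shares were also taken with each cell thinned to 1000 UMIs, which leaves out 812 CD45-positive and 690 CD45-negative cells.

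With 1 library per subset no test was made. Intervals are exact 95% Poisson (levels), Clopper-Pearson (shares) and conditional binomial (ratios), computed in scipy 1.17.1. A gene at 0 is given the level of 3 UMIs as its limit. Named genes are the 7 members, the 3 genes nearest each in class profile, and genes of the fixed lists with the largest log2 ratios in each direction, given where they were called. Other genes and the lists' values by class were chosen after values were seen. The members and lists were chosen with earlier results of these data known. Alternatives covered scaling (TMM in edgeR 4.0.16, median of ratios), cell filters, doublets, clustering, weighting and the richest cell. Interval coverage was checked on simulated Poisson counts, the model the intervals assume, so the check does not cover clumping of UMIs in single cells.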

Additional observations from a re-analysis of the deposited data

How the results depend on the processing

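The log2 ratios of the 7 genes, CD45-positive over CD45-negative library, kept their sign under every alternative run. The scaling factor of the CD45-positive over the CD45-negative library was -0.47 (log2) under TMM and -0.52 under median of ratios, and each ratio moved up by that size, to 5.85 and 5.90 for Il1a, 3.86 and 3.91 for Il1b, 4.02 and 4.07 for Il1rn, -2.83 and -2.78 for Il1r1, 2.87 and 2.92 for Il1r2, -2.71 and -2.66 for Il1rap, and -1.001 and -0.95 for Il18. With each cell weighing the same the ratios were 5.81 for Il1a, 3.72 for Il1b, 3.99 for Il1rn, -2.65 for Il1rap and -1.79 for Il18. Without the richest cell they were 5.80 for Il1a and 3.53 for Il1b. Il1b was at 3.50 with doublet calls kept and 3.51 with no cell filter. Leaving out the mixed clusters, chosen after seeing the data as were the alternatives without shared barcodes, without marker-rich neutrophil-like cells, without the richest CD45-negative microglia-like cell and without genes that name venous cells, gave 3.29 for Il1b, 2.22 for Il1r2 and 3.09 for Il1rn. The median of the other family ligands was 0.081 with no minimum of UMIs in place of -1.53, and that of the receptor signalling genes was 0.45 under TMM and 0.50 under median of ratios in place of -0.01. The cause of these moves was not tested. The class with the highest level was the same for 11 to 14 of 14 gene and library pairs across the clustering alternatives. No paired analysis was possible because each subset had 1 library and the labels carry no replicate number. Without replicate libraries, spread between mice or preparations was not measured, and the small classes rest on few UMIs.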
